A study of Mus musculus with 20 samples.

Results

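Immediate early genes are transcribed within minutes of a growth factor, stress or serum signal from factors already present in the cell. Fos, Fosb, Jun, Junb, Jund, Egr1, Egr2, Ier2, Ier3 and Zfp36 were taken as a list of 10 genes, matched by symbol to the Ensembl identifiers of the deposited files, out of 22332 genes listed in at least 1 chromatin RNA file. Of the 10 genes, 9 were listed in the chromatin RNA files, and Egr2 was listed in none of them. Mouse embryonic stem cells (ESC) and cardiomyocyte cultures made from them (CM), both of the C57BL/6 strain, were either wild type (WT) or carried a knockout of Mettl3 (KO). The cultures were made by way of embryoid bodies in medium with serum and ascorbic acid. Mettl3 encodes the catalytic subunit of the enzyme that writes N6-methyladenosine (m6A) on RNA. Each of the 4 groups had 3 ATAC-seq libraries, which show open chromatin through transposase insertion, and 1 library each of chromatin-associated RNA and of chromatin RNA enriched with anti-m6A antibodies. The labels name neither the knockout allele nor the number of clones or cultures.

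FOS and JUN proteins pair to form the AP-1 transcription factor, and EGR1 and EGR2 are zinc finger transcription factors that bind GC-rich sites. Transcription of many of these genes is driven by serum response factor (SRF) at CArG boxes and by CREB, and their RNAs are short-lived. ZFP36, also called tristetraprolin, binds AU-rich elements and speeds the decay of such RNAs, while m6A is a mark of many unstable RNAs.

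The promoters below are RefSeq sequences of GRCm38.p6, given 5′ to 3′ on the strand of the gene and ending at the base before the annotated start. They were chosen because Egr2 and Zfp36 hold an SRF CArG box, Fos holds a TATA box close to its start, and Jund was the only gene of the list with a promoter entry at which no ATAC-seq library had an interval in its promoter window. Capitals mark motif matches, which describe letters only.
Egr2 promoter, chr10:67537619-67537868, plus strand: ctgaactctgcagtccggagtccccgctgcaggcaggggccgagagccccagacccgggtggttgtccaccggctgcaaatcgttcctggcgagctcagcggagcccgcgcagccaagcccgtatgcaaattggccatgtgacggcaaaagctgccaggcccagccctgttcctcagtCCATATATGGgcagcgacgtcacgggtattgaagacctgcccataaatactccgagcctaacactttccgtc
Zfp36 promoter, chr7:28379229-28379478, minus strand: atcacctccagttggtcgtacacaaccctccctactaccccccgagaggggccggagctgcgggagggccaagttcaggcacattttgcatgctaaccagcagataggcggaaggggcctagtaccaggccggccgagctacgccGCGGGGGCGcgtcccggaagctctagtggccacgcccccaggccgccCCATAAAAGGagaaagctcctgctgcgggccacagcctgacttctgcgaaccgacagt
Fos promoter, chr12:85473640-85473889, plus strand: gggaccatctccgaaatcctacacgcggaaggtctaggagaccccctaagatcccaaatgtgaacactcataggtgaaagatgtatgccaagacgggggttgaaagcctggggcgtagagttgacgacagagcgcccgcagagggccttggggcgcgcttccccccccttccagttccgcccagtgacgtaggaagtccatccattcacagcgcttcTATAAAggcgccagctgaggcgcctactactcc
Jund promoter, chr8:70697489-70697738, plus strand: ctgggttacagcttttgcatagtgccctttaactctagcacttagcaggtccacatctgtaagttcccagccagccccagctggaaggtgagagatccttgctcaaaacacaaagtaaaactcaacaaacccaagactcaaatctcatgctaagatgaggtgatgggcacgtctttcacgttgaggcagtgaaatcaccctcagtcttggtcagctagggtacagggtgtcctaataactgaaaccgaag

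A promoter entry was found for 8 of the 10 genes, and Ier2 and Egr1 had none. Motifs were searched on both strands in windows of 300 bases, from 250 before to 50 after the start. The SRF CArG box, spelled as CC, then 6 letters that are each A or T, then GG, was found at Egr2 and Zfp36, 2 of 8 genes, against 1.63% of 32851 RefSeq promoters. A gene counted if any of its promoter entries matched, and Egr2 has several, while the share of all promoters is per entry. The EGR site GCGNGGGCG was found at Fosb and Zfp36, against 5.55% of all promoters, and the Zfp36 match did not overlap its CArG box. TATAAA was found at Fos, 33 bases before the start, and at Junb, where it begins at the start itself, against 13.6% of all promoters. The CREB site TGACGTCA and the AP-1 site TGANTCA were in none of the 8 sets of windows, against 1.79% and 7.81% of all promoters. For every motif only the full spelling was searched, and only in these windows. Partial sites and sites further upstream were not counted, so a gene without a match may still hold such a site. In these stretches of 250 bases, the Jund promoter was 47.6% G or C, and the median over all promoters was 52.4%.

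In GRCm38.p6, the assembly behind mm10, the FOS genes span chr12:85473890-85477274 (Fos) and chr7:19302696-19310118 (Fosb). The JUN genes span chr4:95049036-95052222 (Jun), chr8:84976909-84978748 (Junb) and chr8:70697739-70700616 (Jund). Egr1 spans chr18:34861207-34864956 and Egr2 chr10:67534469-67542188. Ier2 spans chr8:84661331-84662852, Ier3 chr17:35821713-35822911 and Zfp36 chr7:28376784-28379228.

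The chromatin RNA libraries held about 28000000 to 29800000 estimated reads, and the ATAC-seq lists held between 70132 and 119307 intervals. Mettl3 itself stood at 1.18 RPKM in CM WT, 1.07 in CM KO, 1.73 in ESC WT and 1.28 in ESC KO, so its RNA was still counted in the knockout libraries. RPKM is reads scaled to gene length and library size. The 6 pluripotency markers summed to 7.90, 13.7, 63.5 and 59.7 RPKM in CM WT, CM KO, ESC WT and ESC KO. The 6 cardiomyocyte markers summed to 7.21, 0.438, 0.690 and 0.560 RPKM in the same order. In the ESC libraries most of this sum was Ttn, at 0.641 and 0.491 RPKM, which stood at 2.18 in CM WT and 0.140 in CM KO. Actc1, Myh6, Tnnt2 and Nkx2-5, 4 of the 6, were higher in CM KO than in both ESC libraries, at 0.0322 to 0.103 RPKM, and all 6 were lower in CM KO than in CM WT. The 6 fibroblast markers summed to 28.7 RPKM in CM WT and 8.52 in CM KO, and the 6 visceral endoderm markers to 15.5 and 5.98. The 5 endothelial markers summed to 2.93 and 4.36 RPKM there, and the 4 macrophage markers to 2.55 and 0.824. The part of this difference in marker levels in the comparisons of CM KO with CM WT was not tested, and in bulk libraries fewer cells of a type and less RNA per cell cannot be told apart. Values of chromatin RNA compare single libraries with no replicate check, and intervals around them cover counting error only.

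Fos and Fosb, the FOS partners of AP-1, were higher in both CM libraries than in the ESC libraries, and lower in CM KO than in CM WT. Fos stood at 1.49 RPKM in CM WT, 0.921 in CM KO, 0.380 in ESC WT and 0.231 in ESC KO, from about 148, 93, 36 and 22 reads. Both CM values lay above both ESC values. The ratio of CM WT to ESC WT was 3.91 (95% interval 2.70 to 5.80) and that of CM KO to ESC KO was 3.98 (2.48 to 6.65). The ratio of CM KO to CM WT was 0.619 (0.472 to 0.808), and between the ESC libraries the interval included 1. Fosb was the lowest listed gene of the list in ESC, at 0.0195 RPKM in ESC WT and 0.0292 in ESC KO, from 4 and 6 reads. It stood at 0.576 RPKM in CM WT and 0.119 in CM KO, from 126 and 26 reads. Its RNA was thus 29.5 times (11.4 to 112) as high in CM WT as in ESC WT and 4.08 times (1.64 to 12.1) as high in CM KO as in ESC KO. The ratio of CM KO to CM WT was 0.207 (0.128 to 0.312), the lowest ratio in that comparison among the 9 listed genes.

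Jun, the main JUN partner, ranked above only Fos and Fosb in ESC WT and was the highest of the list in CM WT. It stood at 3.06 RPKM in CM WT, 2.70 in CM KO, 0.482 in ESC WT and 0.212 in ESC KO, from about 287, 257, 43 and 19 reads. The CM libraries lay far above the ESC libraries and close to each other. The ratio was 6.35 (4.60 to 8.96) for CM WT to ESC WT and 12.7 (7.99 to 21.5) for CM KO to ESC KO. Jun was also the only listed gene of the list whose interval excluded 1 between the ESC libraries, with an ESC KO to ESC WT ratio of 0.440 (0.242 to 0.771). Its neighbour Junos, a non-coding RNA whose gene lies 95 bases away, stayed at or below 0.0993 RPKM in the 4 libraries. Jund, a JUN member with steady expression in many cells, stood at 1.26 RPKM in CM WT, 0.943 in CM KO, 0.571 in ESC WT and 0.655 in ESC KO. The CM to ESC ratio was 2.21 (1.55 to 3.20) in WT and 1.44 (1.01 to 2.07) in KO. Junb, a JUN member that can oppose JUN, stood at 0.554, 0.619, 0.525 and 0.368 RPKM in CM WT, CM KO, ESC WT and ESC KO. Its 4 intervals overlapped, and no ratio of the 4 comparisons had an interval that excluded 1.

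Egr1 stood at 1.71 RPKM in CM WT, 1.55 in CM KO, 1.42 in ESC WT and 1.14 in ESC KO, and the only interval that excluded 1 on the deposited values was that of CM KO to ESC KO, 1.36 (1.07 to 1.73). The gene model behind the files is longer than the RefSeq one, because m6A positions in Egr1 reach 4916 while the RefSeq gene spans 3750 bases, so its estimated reads are approximate. Egr2 overlaps the non-coding gene Gm32255, and the way overlapping genes were counted is not stated in the labels.

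Ier2, a nuclear early response protein, was the only listed gene of the list that was lower in both CM libraries. It stood at 2.81 RPKM in CM WT, 3.06 in CM KO, 4.91 in ESC WT and 4.02 in ESC KO, with both ESC libraries above both CM libraries. Its ratio of CM WT to ESC WT was 0.573 (0.456 to 0.719) and that of CM KO to ESC KO was 0.761 (0.604 to 0.957). After the libraries were scaled by their median ratio, the KO ratio was 0.820 (0.651 to 1.03), with 1 inside the interval. Ier3, an early response protein tied to cell survival, stood at 1.65, 1.49, 1.10 and 0.718 RPKM in CM WT, CM KO, ESC WT and ESC KO. Its ratio in KO differentiation was 2.07 (1.26 to 3.52), while that in WT, 1.502 (0.971 to 2.32), had 1 inside its interval. Flot1, whose gene lies 409 bases from Ier3, stood at 0.283 to 0.594 RPKM. Zfp36 stood at 1.29 RPKM in CM WT, 0.637 in CM KO, 0.593 in ESC WT and 0.374 in ESC KO. CM WT stood apart from the other 3 libraries, with a ratio of 2.18 (1.48 to 3.20) to ESC WT, and CM KO to CM WT was 0.493 (0.335 to 0.701).

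**Figure D1:**
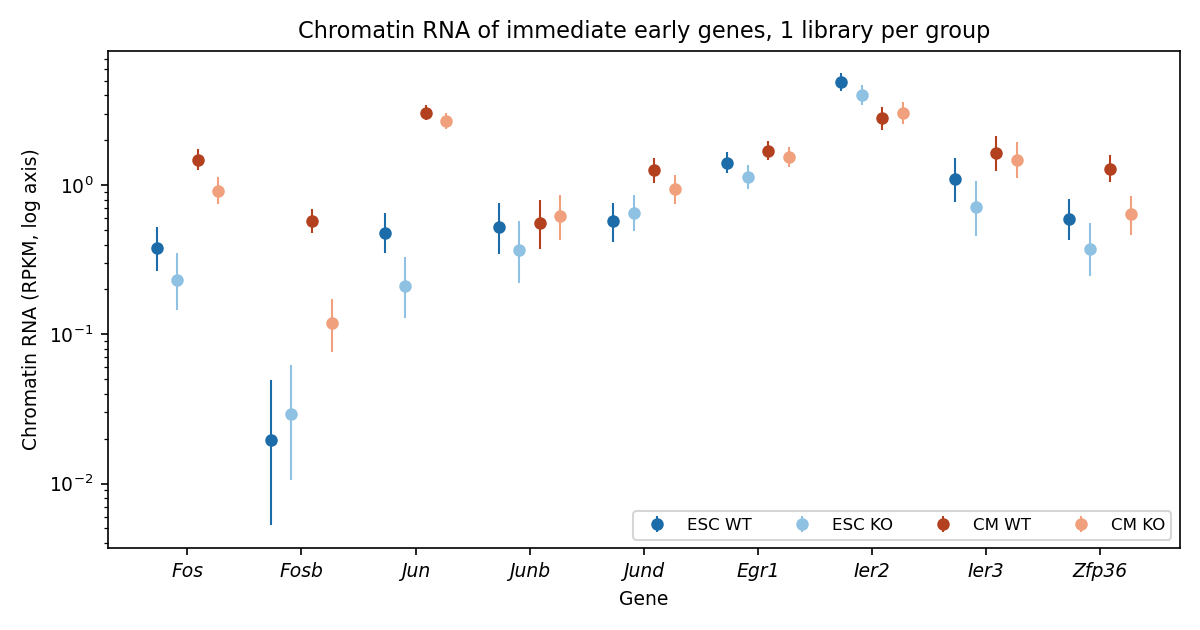
Chromatin RNA of the 9 listed genes, in RPKM on a log axis, with 1 point per library and bars for the 95% interval of the estimated reads. Fos, Fosb and Jun lie higher in both CM libraries, Ier2 lies lower, and Junb and Egr1 lie close together across the 4 libraries.

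The order of the levels, which are per length and so can be set against each other, differed between the cell states. In ESC WT the order from the highest was Ier2, Egr1, Ier3, Zfp36, Jund, Junb, Jun, Fos and Fosb. The intervals of Ier2 and Fosb were separate from their neighbours, and neighbours from Egr1 to Fos overlapped. In CM WT the order was Jun, Ier2, Egr1, Ier3, Fos, Zfp36, Jund, Fosb and Junb. There the intervals of Jun and Ier2 overlapped, as did neighbours from Egr1 to Jund and those of Fosb and Junb. By mean RPKM over the libraries, Ier2 was at the 96.0th percentile of listed genes, Jun at the 88.3rd and Fosb at the 48.0th.

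A counting interval above 1 was found for 5 of the 9 genes in CM WT against ESC WT, namely Fos, Fosb, Jun, Jund and Zfp36, and for 33.9% of 18687 genes. In CM KO against ESC KO it was found for 7 of 9, the same 5 with Egr1 and Ier3, and for 38% of genes. An interval below 1 was found for Ier2 in both of these, against 34.4% and 24.2% of genes. In ESC KO against ESC WT no gene of the list was above 1 (14.2% of genes) and Jun was below 1 (32%). In CM KO against CM WT none was above 1 (29.5%), and Fos, Fosb and Zfp36, 3 of 9, were below 1 (20.5%). Genes with at least 1 RPKM in both libraries had a median log2 ratio of -0.34 for CM WT against ESC WT and 0.18 for CM KO against CM WT. Scaling by that median took the genes below 1 in CM KO against CM WT to 6 of 9, adding Jun, Jund and Egr1, and the background to 31%, with 17.7% above 1. The same scaling turned the Junb and Ier2 ratios of that comparison from 1.12 and 1.09 to 0.985 and 0.959. Scaled in the same way, 7 of 9 genes were above 1 in CM WT against ESC WT (43.8% of genes), with Egr1 and Ier3 added, and Ier2 was below 1 (23.9%). In CM KO against ESC KO 8 of 9 were above 1 (42.1%), Ier2 being the exception, and none was below 1 (20%). In ESC KO against ESC WT none was above 1 (20.2%) and Jun was below 1 (23%). Both pairs of comparisons share libraries, so their values are given side by side and were not correlated.

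**Figure D2:**
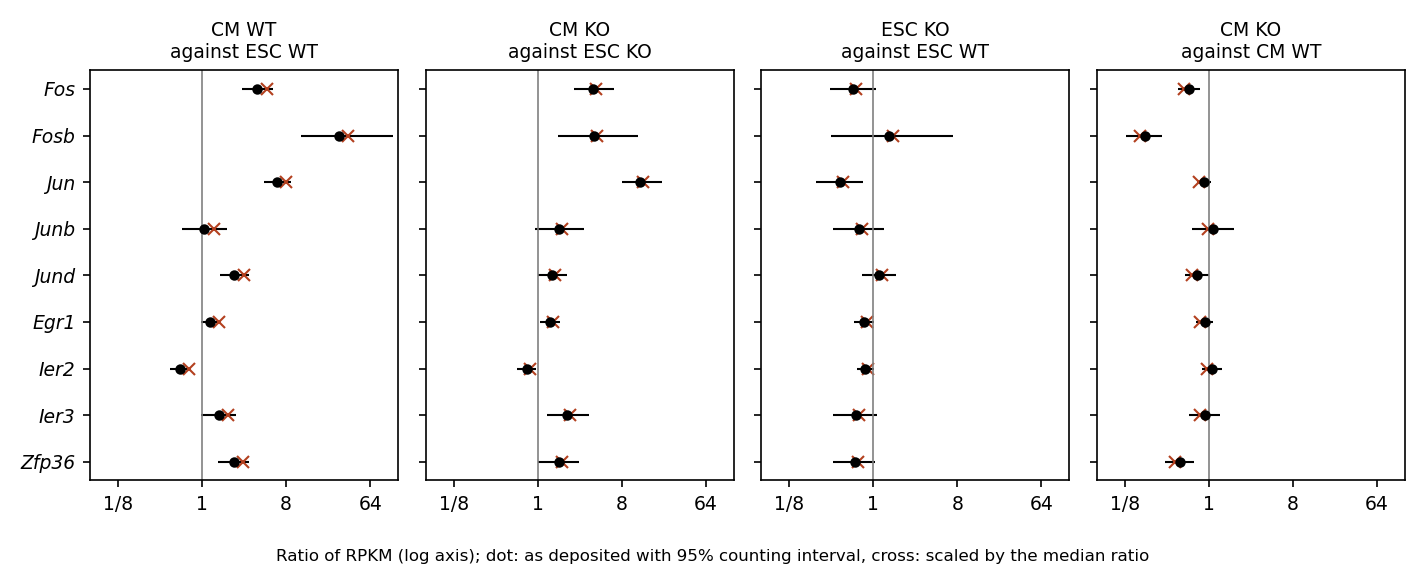
RPKM ratios of the 9 listed genes in the 4 comparisons on a log axis, with dots and bars for the deposited values and their 95% counting intervals and crosses for values scaled by the median ratio. Fos, Fosb and Zfp36 have bars below 1 in CM KO against CM WT, and Jun has the only bar below 1 in ESC KO against ESC WT.

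On the log2(RPKM + 1) scale, which understates changes of low genes, 7 of the 10 genes reached 1 RPKM in CM WT or ESC WT and Jun alone was at least 2-fold higher. The background was 4.6% higher and 6.5% lower of 5865 genes. The median log2 ratio of the 7 genes was 0.53, and that of all genes was -0.25. Jun was also, in CM KO against ESC KO, at least 2-fold higher among 4 genes, against 5% higher and 3.67% lower of 5558. None of the genes passed 2-fold in ESC KO against ESC WT, where 1.49% of genes were higher and 0.649% lower, or in CM KO against CM WT, where 2.11% were higher and 1.37% lower. By plain RPKM ratios, 4 of 7 genes, Fos, Jun, Jund and Zfp36, were at least 2-fold higher in CM WT than in ESC WT, against 9.18% of genes higher and 19.3% lower. With a pseudocount of 0.1 these were also 4 genes, against 9.41%. Plain ratios gave 2 of 4 genes higher in CM KO than in ESC KO, Jun and Ier3, against 10.7% higher and 6.94% lower. They gave none of 3 in ESC KO against ESC WT (1.45% higher, 1.7% lower) and 1 of 7, Zfp36, lower in CM KO than in CM WT (2.9% higher, 1.68% lower).

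Other genes of the early response were read from a list of 33 immediate and delayed early genes, of which 31 were listed. In CM WT against ESC WT, 3 of 15 that reached 1 RPKM were at least 2-fold higher and 2 lower on the log2(RPKM + 1) scale, against 4.6% and 6.5% of all genes. Among 14 such genes in CM KO against ESC KO, 4 were higher and 1 lower, against 5% and 3.67%. Klf6, a Krüppel-like factor, stood at 6.05 RPKM in CM WT, 4.90 in CM KO, 1.26 in ESC WT and 0.963 in ESC KO, at least 2-fold higher in CM in both genotypes, as were Rhob and Plk2. Klf4, a pluripotency factor as well as an early gene, went the other way, from 2.26 and 2.77 RPKM in ESC WT and ESC KO to 0.319 and 0.554 in CM WT and CM KO. On that scale neither KO comparison had a gene of this list past 2-fold, while by plain ratio Myc, a transcription factor of cell growth, was at 0.472 in ESC KO against ESC WT (0.509 and 1.08 RPKM). On the same log2(RPKM + 1) scale none of the 19 upstream factors and kinases passed 2-fold in the 4 comparisons. By plain ratio Mapk3, which encodes the kinase ERK1, was 3.01 times as high in CM KO as in ESC KO (1.03 and 0.343 RPKM). Among the 7 feedback genes, Spry4, an inhibitor of receptor signalling, was lower in both CM libraries. Its levels were 1.38, 1.30, 7.32 and 4.66 RPKM in CM WT, CM KO, ESC WT and ESC KO. By plain ratio Dusp4 went the other way, at 6.49 for CM WT to ESC WT and 5.76 for CM KO to ESC KO. Of 5 feedback genes reaching 1 RPKM, 2 were higher and 3 lower in CM WT than in ESC WT. In CM KO against ESC KO, 3 of 5 were higher and 2 lower. By plain ratio Dusp6 and Spry2 of these 7 were both at 0.463 in ESC KO against ESC WT (1.26 and 2.73, 3.00 and 6.47 RPKM). All 4 feedback genes reaching 1 RPKM there were lower in ESC KO, at a median log2(RPKM + 1) ratio of -0.64 (all genes -0.092). Hspb1, a heat shock gene, was at 0.368 (0.584 and 1.59 RPKM). In that comparison 1.7% of all genes were at least 2-fold lower by plain ratio. Myc, Mapk3, Dusp4, Dusp6, Spry2 and Hspb1 were singled out after their values were seen. Of 9 heat shock genes that reached 1 RPKM in CM WT or ESC WT, 4 were at least 2-fold lower in CM WT on the log2(RPKM + 1) scale. This was so for 6.5% of all genes. Hspa8 was the only one of 8 that was 2-fold lower in CM KO against ESC KO, where 3.67% of all genes were lower. It stood at 939 RPKM in CM WT, 990 in CM KO, 2081 in ESC WT and 2265 in ESC KO. This was far above the other heat shock genes, of which Hspd1 was the highest, at 13.2 RPKM in ESC WT. The source of the high Hspa8 count was not tested.

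Genes with the most similar pattern were ranked by Euclidean distance between centred log2(RPKM + 1) profiles over the 4 libraries, among 2667 protein-coding genes with at least 1 RPKM in each. Marcks, Tpm1 and Apoe were nearest to Jun. Spaca6, Plxnb2 and Ctsd were nearest to Fos, Plekha5, Tbrg1 and Zmynd8 to Egr1, Pkd2, Pbrm1 and Elk4 to Junb, and Cct3, Mat2b and Clns1a to Ier2. The distance from Jun to Marcks was 0.164, with Marcks at 6.52 RPKM in CM WT, 5.003 in CM KO, 1.45 in ESC WT and 1.19 in ESC KO.

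Open chromatin was present at all 10 genes, including Egr2 with no listed RNA, and the numbers of intervals overlapped between groups. Windows of the genes with 2 kb on either side held 33, 27 and 28 ATAC-seq intervals in the CM WT libraries, 27, 30 and 33 in CM KO, 37, 36 and 33 in ESC WT, and 35, 31 and 35 in ESC KO. The groups overlapped in all 4 comparisons. The mean was 29.3 ± 3.21 (SD, n = 3) in CM WT, 30.0 ± 3.00 in CM KO, 35.3 ± 2.08 in ESC WT and 33.7 ± 2.31 in ESC KO. By exact two-sided permutation tests, whose smallest p with 3 against 3 is 0.1, the difference between CM WT and ESC WT had p = 0.2, as had that between CM KO and ESC KO. The same exact permutation test gave p = 0.5 for ESC KO and ESC WT and p = 1 for CM KO and CM WT. The KO effect in CM minus that in ESC was 2.33 intervals (exact permutation of genotype within cell type, p = 0.505).

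The whole lists shortened by more than the gene windows in differentiation. The number of intervals in the windows changed by -16.98% from ESC WT to CM WT and the whole list by -21.1%. From ESC KO to CM KO the windows changed by -10.9% and the list by -36.2%. Per 100000 intervals of each list, CM WT exceeded ESC WT by 1.77 (exact permutation p = 0.7) and CM KO exceeded ESC KO by 11.6 (exact permutation p = 0.1, the smallest possible), both the reverse of the direction by number. With every list trimmed to equal length, CM WT minus ESC WT was -0.333 intervals (exact permutation p = 1), which kept its direction, while CM KO exceeded ESC KO by 4.33 and the difference of KO effects was 4.67 (exact permutation p = 0.04). Without CM KO replicate 3 or CM WT replicate 2, the difference between CM KO and CM WT turned from 0.667 to -0.833 or -0.5.

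**Figure D3:**
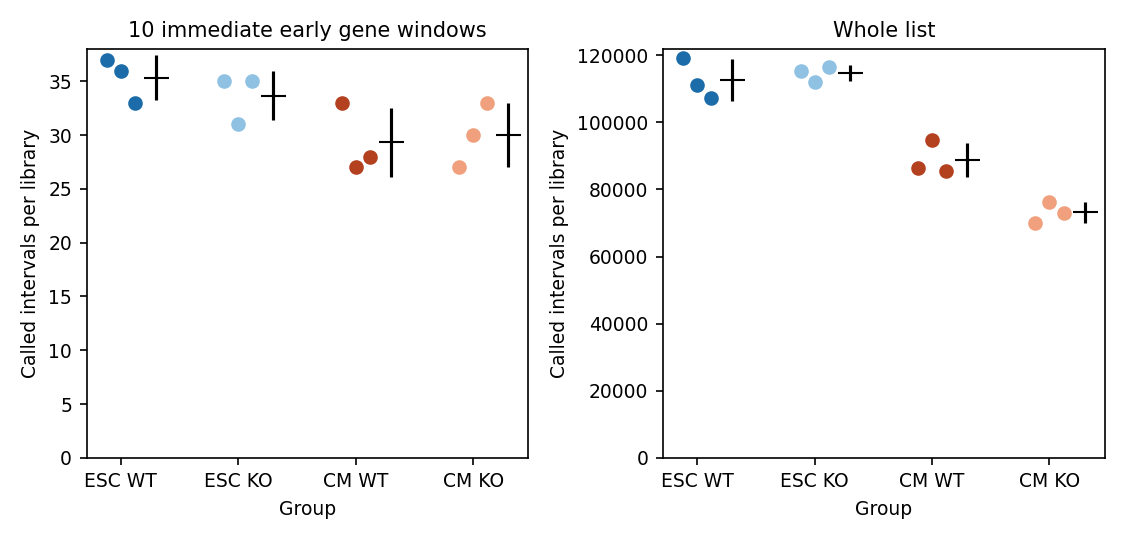
Called ATAC-seq intervals per library in the 10 gene windows (left) and in the whole list (right), with points for the 3 libraries of each group and bars for the mean ± SD. The windows hold between 27 and 37 intervals and their groups overlap, while the whole lists are shorter in CM, most of all in CM KO.

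Merging intervals that shared at least 1 base gave 35 regions in the windows, of which 22, or 62.9%, were called in 12 of 12 libraries. Among 193427 regions of the series the share was 21.1%. Those regions were not limited to genes and their 2 kb flanks, so shares of all regions, here and below, are not like for like. All regions at Fos, Ier2, Ier3 and Zfp36 were called in 12 of 12 libraries, 2, 4, 2 and 4 of them. A promoter window with an interval in 12 of 12 libraries was found at 7 of the 8 genes with a promoter entry, or 87.5%, against 58.6% of 17491 protein-coding genes. The exception was Jund, with 0 of 12 libraries at the promoter printed above and a region called in 12 of 12 libraries from 575 to 2090 bases inside the gene. Egr2 has several promoter entries and was counted for any of them. Its entry at chr10:67535249-67535548 had an interval in 8 of 12 libraries. The strongest interval of each window had a median fold over local background, as the authors' peak lists give it, from 4.02 at Zfp36 to 6.37 at Fosb. By p-value within its own list, the strongest Jun interval was at a median percentile of 93.2, and the lowest median, at Egr2, was 81.1.

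A region was called opened when it was in 3 of 3 libraries of one group and 0 of 3 of the other, and closed in the reverse case. In CM WT against ESC WT, 0 of the 35 regions opened and 3 closed, against 5.83% and 11.5% of all regions. The closed regions lay 1176 to 927 bases before the Jund start, 2892 to 3295 bases after it, and 4198 to 4642 bases after the Egr2 start. Distances at Egr2 are from the start of its gene span, which lies upstream of the promoter printed above. The Jund upstream region was called in 0, 0, 3 and 2 libraries of CM WT, CM KO, ESC WT and ESC KO, the downstream one in 0, 2, 3 and 3, and the Egr2 region in 0, 1, 3 and 2. Jund and Egr2, 2 of 10 genes, thus had a closed region, against 32.6% of 21896 protein-coding gene windows, and 0 of 10 had an opened one (15.9%). The windows of the list span 5199 to 11720 bases, and longer windows have more room for a called region. The windows of all protein-coding genes were not matched to these in length. Shares by gene, here and in the other comparisons, are therefore not like for like. In CM KO against ESC KO, 0 opened and 2 closed, against 0.948% and 9.74% of all regions. One lay 652 to 1133 bases inside the Egr2 span, called in 2, 0, 3 and 3 libraries in the same order of groups. It covered the Egr2 promoter entry at chr10:67535249-67535548. The other lay beyond the higher-coordinate end of Egr1, called in 2, 0, 0 and 3. By gene, 2 of 10 had a closed region (29.2%) and 0 an opened one (3.68%). In ESC KO against ESC WT this Egr1 region opened, 1 of 35 against 1.25%, and a region 9125 to 9550 bases from the Fosb start closed, 1 of 35 against 1.37%. By gene the background was 5.12% opened and 6.14% closed. In CM KO against CM WT no region of the list opened or closed, against 0.754% and 3.74% of regions and 3.27% and 12.8% of gene windows. The called regions had a −log10 q between 1.76 and 12.3, while the main Jun region, the strongest of the list, ranged from 38.9 to 50.9. Some regions called in 12 of 12 libraries overlapped that lower range, such as the one inside Ier2, at 5.03 to 13.8. With lists of equal length, closed regions fell to 1 in WT differentiation and 0 in KO differentiation, and neither region remained called in ESC KO against ESC WT.

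**Figure D4:**
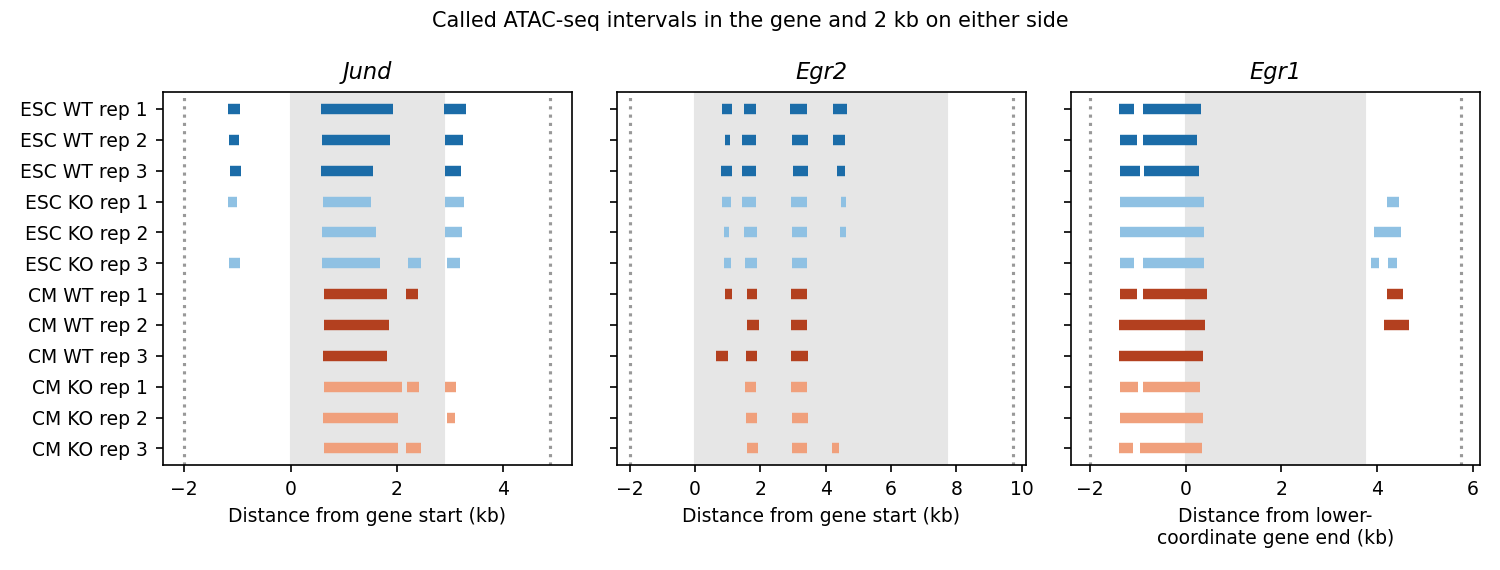
Called intervals at Jund, Egr2 and Egr1 in each of the 12 ATAC-seq libraries, by distance in kb, with the gene shaded grey and dotted lines at 2 kb on either side. The Jund interval before the gene start appears in 3 ESC WT and 2 ESC KO libraries. The interval to the right of Egr1 appears in 3 ESC KO and 2 CM WT libraries.

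At Egr1 the bases covered by intervals differed in opposite directions between KO and WT in ESC and in CM. They numbered 2019, 2329 and 1751 in CM WT, 1561, 1724 and 1582 in CM KO, 1522, 1492 and 1575 in ESC WT, and 2003, 2298 and 1911 in ESC KO. Every ESC KO library was above every ESC WT library, and every CM KO library below every CM WT library. Part of the covered bases lay in the region beyond the higher-coordinate end of Egr1 described above. It was called in 2, 0, 0 and 3 libraries of CM WT, CM KO, ESC WT and ESC KO. Its −log10 q was 3.33 to 5.73, and with lists of equal length it was no longer called opened or closed. Around the lower-coordinate end of Egr1, some libraries had 1 spanning interval and others 2 with a gap between them. In ESC KO replicate 1 it ran from -1374 to 373 bases. In ESC WT replicate 1 the intervals ran from -1393 to -1089 and from -895 to 321 bases. The gap counted as covered only where 1 interval spanned it. The KO effect in CM minus that in ESC was -952 bases (exact permutation p = 0.005, the smallest it can give, and 0.1 after Benjamini-Hochberg adjustment over 20 tests of 10 genes and 2 measures). The KO to WT ratio of Egr1 chromatin RNA was 0.801 (0.625 to 1.03) in ESC and 0.909 (0.733 to 1.12) in CM. After median scaling it was 0.866 (0.676 to 1.11) in ESC and 0.802 (0.647 to 0.988) in CM, where the interval then excluded 1.

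The m6A lists gave 23 positions in the 10 genes in CM WT, 12 in CM KO, 19 in ESC WT and 18 in ESC KO, in 9, 6, 8 and 6 of the genes. Per 10000 positions of each list this was 8.98, 8.59, 11.2 and 9.96, with the highest count on the longest list and the lowest on the shortest. The lists held 25617, 13962, 16983 and 18076 distinct positions. There was 1 list per group, and no test was made. Among all genes with at least 1 RPKM, 75.8%, 58.6%, 65.3% and 67.9% held a position in these lists. Positions were thus also listed in both libraries labelled KO.

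Positions are counted from 0 at the gene start, and each marks the first base of a 4-base motif. The Fos position is printed below with 13 bases before and 13 after its motif, in capitals, because it was on both WT lists and on neither KO list and it lies near the start of the gene.
Fos position 27, chr12:85473904-85473933, plus strand: cgagcaactgagaAGACtggatagagccgg
Fos had this 1 position, and Junb position 756 was the other of the list found on both WT lists and on neither KO list. The share of the positions of all genes with this pattern was not calculated, so it is not known whether the list of genes differs from it. Fosb, with 126 estimated reads in CM WT and at most 26 elsewhere, had positions 52 and 5203 on the CM WT list only. Zfp36 had 5 positions in CM WT, 2 in ESC KO and 1 each in ESC WT and CM KO. Its RPKM was also higher in CM WT than in CM KO. The part of RNA level in these differences was not tested.

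Egr1 held 11 of the 34 distinct positions, more than any other gene of the list, with 7 in CM WT, 4 in CM KO, 9 in ESC WT and 8 in ESC KO. Its positions 3243, 3926, 4191 and 4318 were on all 4 lists, as were Ier2 position 1246, Jund position 1235 and Zfp36 position 16. These 7 made up 20.6% of the 34, against 10.1% of 42515 positions of all genes. In Jun, positions 2015 and 2251 were on both ESC lists and on neither CM list, and position 1960 was on both CM lists only. Of the CM WT positions, 56.5% in the list of genes and 35.1% in all genes were also on the ESC WT list. For CM KO positions and the ESC KO list the shares were 66.7% and 49.7%. No position was listed in Egr2. Of the positions in the list of genes, 12 were on both ESC lists, which is 63.2% of the WT positions and 66.7% of the KO positions. In all genes the shares were 53.9% and 50.7%. On both CM lists there were 10, which is 43.5% of the WT positions and 83.3% of the KO positions, against 35.6% and 65.3% in all genes.

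**Figure D5:**
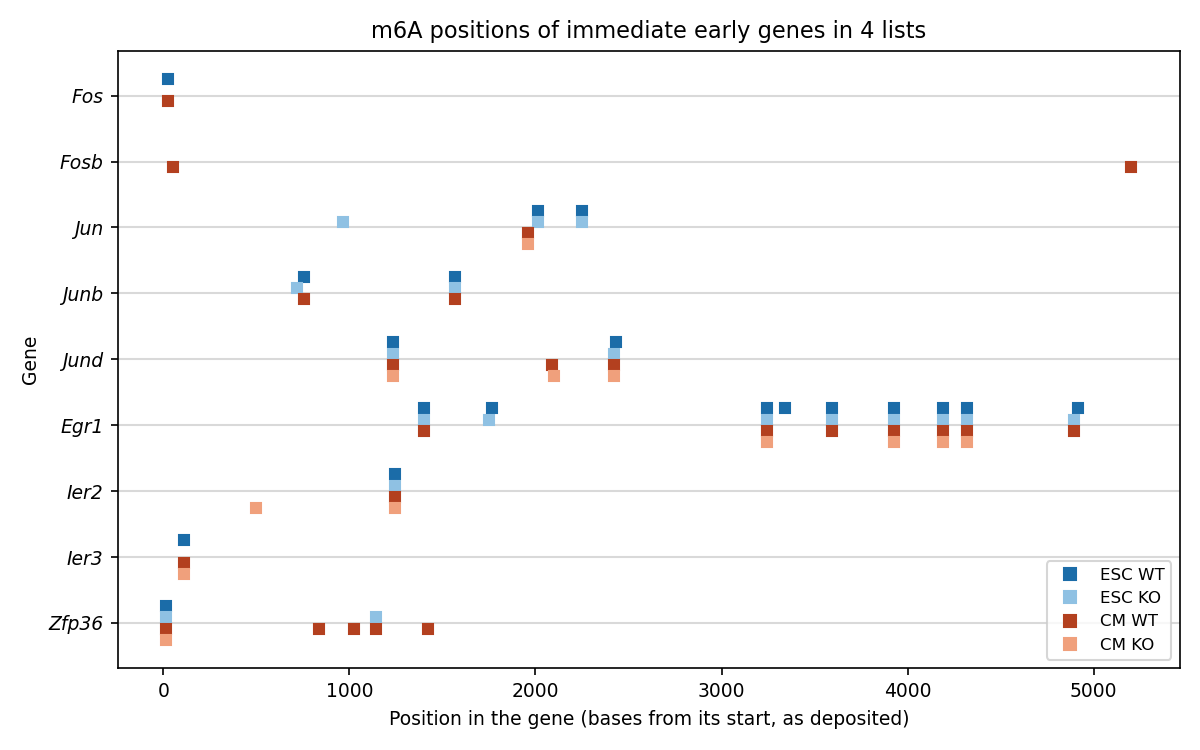
m6A positions of the 9 genes that have any, by bases from the gene start, with 1 square per position and list. Egr1 holds 4 positions found on all 4 lists, Fos holds 1 found on the ESC WT and CM WT lists, and Jun holds different positions in ESC and CM.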

How the data were processed

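The members and gene lists were chosen with earlier results of these data known. All 10 members are named; other genes are named where they passed 2-fold in at least 1 chromatin RNA comparison, or by nearest pattern. Per the submitters' processing notes, HISAT2, Bowtie, MACS2, Picard and cutadapt were used with mm10, with neither roles nor versions stated. The deposited chromatin RNA files give RPKM per Ensembl gene, 1 library per group, and absent genes were taken as 0 in counts of genes. Read numbers were derived from the step between low RPKM values and from RefSeq gene spans. Between 53.9% and 56.0% of genes with 1 to 10 reads lay within 0.05 of a whole number, so reads are approximate. Ratios carry 95% Clopper-Pearson intervals. Counts of 2-fold changes used log2(RPKM + 1) and genes that reached 1 RPKM in either library.

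Each ATAC-seq library has its own deposited peak list, with a score, a fold enrichment (a ratio), and −log10 p and −log10 q of each summit, which are the authors' values. Summits of the same interval were merged. The labels of CM KO replicate 3 name RNA as the molecule, and its file was used as ATAC-seq. Interval numbers were compared by two-sided exact permutation tests. The labels do not say whether libraries came from separate cultures, so p-values measure only spread among libraries, possibly technical. The deposited m6A lists give a gene, a position and a motif. Repeated lines were counted once. Motif letters matched RefSeq sequence when positions were counted from 0, for 53.7% of 147 plus-strand and 43.4% of 219 minus-strand positions, and for at most 2.28% at other offsets. Calculations used Python 3.11.15 with numpy 2.4.6, pandas 2.3.3 and scipy 1.17.1, and were tested on simulated data.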

Additional observations from a re-analysis of the deposited data

Results flagged for a closer look

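The bases covered by ATAC-seq intervals in the Egr1 window were 541 higher on average in ESC KO than in ESC WT, with no overlap of the libraries, and every CM KO library lay below every CM WT library. Over the same libraries they were 503 higher in CM WT than in ESC WT, and every CM KO library lay below every ESC KO library. The difference of the KO effects had p = 0.005 by exact permutation, the smallest it can give, and 0.1 after Benjamini-Hochberg adjustment over 20 tests. Part of the covered bases lay in the region beyond the higher-coordinate end of Egr1, already called opened in ESC KO against ESC WT and closed in CM KO against ESC KO. Around the lower-coordinate end, a gap between neighbouring intervals counted as covered only in libraries where a single interval spanned it. The difference of the differentiation effects was not tested separately. The cause was not tested.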

How the results depend on the processing

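Limits: chromatin RNA and m6A have 1 library per group, and ATAC-seq peak lists give no read depth. The alternatives that widen m6A positions to the gene plus 2 kb or to either strand were not run, because positions are given within genes and without strand.

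Among the alternative values of the comparisons, 17 counts moved by more than 1.5 times, 8 differences reversed and 2 passed 0.05, and 141 did none of these. Only the difference of KO effects could pass 0.05, because exact permutation tests of 3 against 3 libraries or fewer cannot go below p = 0.1. Among the 141, the difference between CM KO and CM WT was 0, with no direction, at 10 kb on either side and without CM WT replicate 3. The number of genes past 2-fold in CM WT against ESC WT was 1, and 4 with a pseudocount of 0.1 or plain ratios, 2 after median scaling and 3 at 1.5-fold. Plain ratios, chosen after seeing the data as was the number per 100000 intervals, gave 2 in CM KO against ESC KO and 1 in CM KO against CM WT.

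Interval numbers reversed per 100000 intervals in CM WT against ESC WT (1.77) and CM KO against ESC KO (11.6), and at equal list length in CM KO against ESC KO (4.33). CM KO against CM WT reversed with gene bodies only (-1) and covered bases (-528). The difference of KO effects reversed with gene bodies only (-0.333) and passed 0.05 at equal list length (4.67) and per 100000 intervals (9.87). Without 1 replicate, differences ranged from -7.83 to -4.83 (CM WT against ESC WT), -5.17 to -2.17 (CM KO against ESC KO), -2.83 to -0.333 (ESC KO against ESC WT) and -0.833 to 2.50 (CM KO against CM WT), and the difference of KO effects from 0.833 to 4.17.

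Closed regions without 1 replicate numbered 3 to 4, 2 to 4, 1 to 1 and 0 to 1 in these comparisons, and opened regions 0 to 1, 0 to 0, 1 to 1 and 0 to 1. The counts that moved by more than 1.5 times came without CM WT replicate 3 (1 opened in CM WT against ESC WT, 1 closed in CM KO against CM WT), ESC KO replicate 2 (4 closed in CM KO against ESC KO), CM KO replicate 3 (1 opened in CM KO against CM WT) and CM WT replicate 2 (1 closed there). Smaller changes came without CM WT replicate 2 (4 closed in CM WT against ESC WT) and CM KO replicate 2 (3 closed in CM KO against ESC KO). At a −log10 q of at least 3, closed regions were 1 in CM KO against ESC KO and 0 in ESC KO against ESC WT. At equal list length, closed regions were 1, 0 and 0 in CM WT against ESC WT, CM KO against ESC KO and ESC KO against ESC WT, and opened regions 0 in the last. Trimming leaves fewer intervals by construction, and the cause was not tested.

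With a replicate block the differences were -6, -3.67, -1.67 and 0.667, with exact sign-flip permutation p values of 0.25, 0.25, 0.75 and 1. Deviations of same-numbered libraries correlated between -0.0172 and 0.0199, so no pairing by number was seen in them. Such correlations cannot exclude that same-numbered libraries share a culture or batch. The smallest p that the sign-flip test can give is 0.25, and that of the exact permutation test without the block is 0.1. Neither could pass 0.05 in these comparisons, so the block could change no call.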
